A study of Danaus plexippus with 32 samples.

Results

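The genes described here are *Pfk-2/FBPase-2* (DPOGS215489) and *Pdk* (DPOGS210186), which encode regulators of glucose use in the brain of the monarch butterfly, *Danaus plexippus*. They were taken by identifier, and are 2 of the 15130 genes in the files and 2 of the 10412 expressed genes (those that reached 3 FPKM in any wild-type library). In assembly v3 of the monarch genome, *Pfk-2/FBPase-2* spans DPSCF300098:521397-530928 and *Pdk* spans DPSCF300283:216679-239382. The files give a span for each gene, without exons or strand.

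Pfk-2/FBPase-2 is a bifunctional enzyme that makes and degrades fructose 2,6-bisphosphate, a strong activator of phosphofructokinase (Pfk-1), which catalyses the committed step of glycolysis. Pdk phosphorylates and thereby inhibits the pyruvate dehydrogenase complex, which feeds pyruvate into mitochondrial oxidation. The first enzyme thus bears on how fast glucose is split, and Pdk on how much of the product is burnt in mitochondria. In animals, both steps are also controlled at the protein level, by phosphorylation and metabolites, which RNA levels do not show.

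The brains came from adults of *Cry2* knockouts and *Clk* knockouts, loss-of-function strains without a working clock, and from wild-type monarchs. CRY2 is the repressor and CLK an activator of the monarch clock. Adults spent a minimum of 7 days after eclosion under 15-h days and 9-h nights, and times are given as ZT (Zeitgeber Time, in hours after lights on). The knockouts were sampled at ZT4, ZT10, ZT16 and ZT22 (8 libraries per strain) and wild-type at 8 times every 3 h beginning at ZT1 (16 libraries), with 2 libraries of 3 pooled brains per genotype and time. Replicate 1 is labelled male and replicate 2 female throughout, so that sex and replicate cannot be told apart. In all, 16 libraries were sequenced together in a pool, and which ones shared a pool is not given in the sources used here, so that a pool and a genotype could not be separated. Levels are FPKM (fragments scaled to transcript length and to the mapped reads of the library), as deposited with a 95% interval per value, and differences are on the log2(FPKM + 1) scale unless stated otherwise.

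The libraries held between 2848069 and 4456322 reads on genes. The *Cry2* transcript itself was present in *Cry2* knockouts (22.1 to 23.9 FPKM, against 18.5 to 34.6 in wild-type), and its level is no check of that label. *per*, a target of CLK, ranged between 3.49 and 5.80 FPKM in *Clk* knockouts and between 8.31 and 45.7 FPKM in wild-type. Neuronal and glial markers were present in every genotype. The summed level of 4 glial markers spanned 850 to 939 FPKM in *Cry2* knockouts, 567 to 914 FPKM in *Clk* knockouts and 753 to 1154 FPKM in wild-type libraries. For 3 neuronal markers it spanned 148 to 175 FPKM in *Cry2* knockouts, 111.9 to 197 FPKM in *Clk* knockouts and 146 to 177 FPKM in wild-type libraries. None of these markers was at 0, nor were 2 eye markers (32.5 to 54.7 FPKM in sum over all libraries), although the brains were dissected free of photoreceptors. The part of these cell types in the results was not tested, and fewer cells of a type and less RNA per cell cannot be told apart in such pools.

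Some libraries stood apart. In the female wild-type library at ZT22, a single locus, DPOGS214898, made up 4.97% of the FPKM sum, against 24.9% to 30.8% in the other 15 wild-type libraries. This library had the highest value of the 16 for 28.2% of expressed genes (2940 of 10412), where an even share would be 6.25%. It had the lowest value of the 16 for 3310 of them. In the male *Clk* knockout library at ZT4, the median expressed gene was at -0.35 relative to its wild-type mean, against -0.15 to 0.05 in the other 31 libraries. Results that rest on these libraries are given with and without them.

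Both genes were well expressed. *Pfk-2/FBPase-2* had a median of 73.5 FPKM in wild-type, above all but 13.1% of expressed genes, and *Pdk* a median of 42.7 FPKM, above all but 22.5% (the median expressed gene was at 17.1 FPKM). The intervals give back between 462 and 1241 reads behind a wild-type value of *Pfk-2/FBPase-2* and between 335 and 789 behind one of *Pdk*. Their half-width had a median of 7.66% of the *Pfk-2/FBPase-2* value and of 8.89% of the *Pdk* value in wild-type, which covers counting error only.

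**Figure D1:**
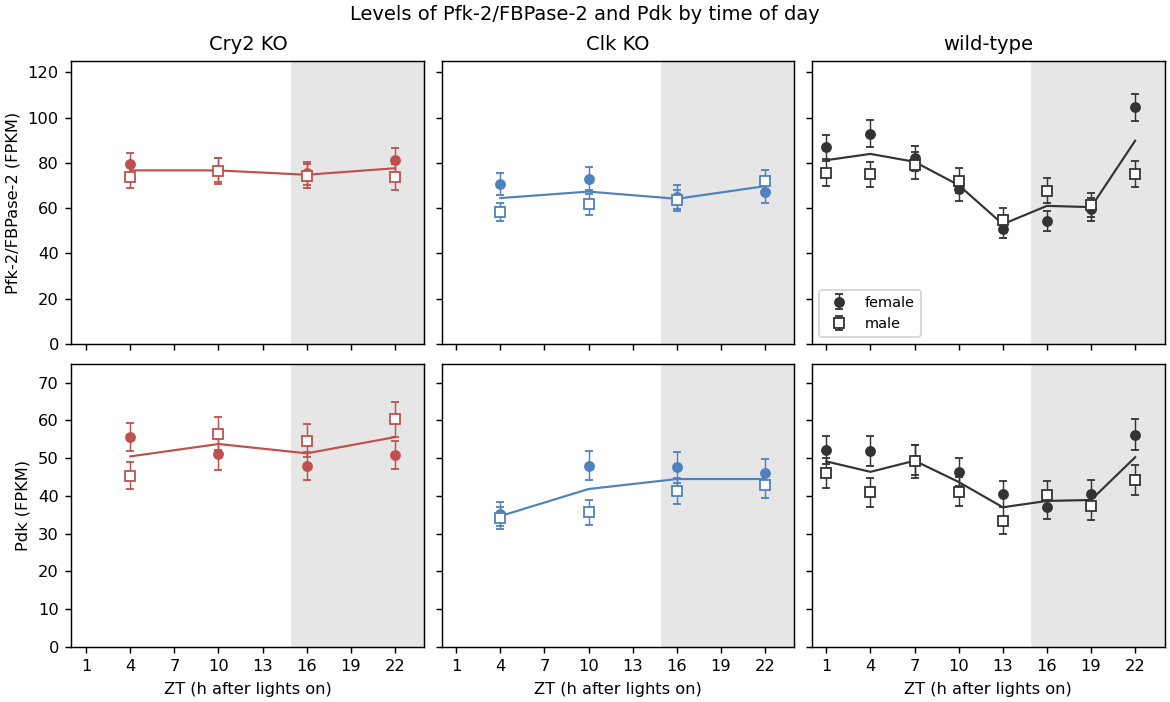
FPKM (y axis) of *Pfk-2/FBPase-2* (top) and *Pdk* (bottom) against ZT in hours (x axis) in *Cry2* knockouts, *Clk* knockouts and wild-type, with filled circles for female and open squares for male libraries, 95% counting intervals as bars, lines through the means of 2 libraries and darkness shaded. In wild-type the mean of both genes is lowest at ZT13, while *Pfk-2/FBPase-2* lies between 73.8 and 81.4 FPKM in all 8 *Cry2* knockout libraries.

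Both transcripts were high from the end of the night through the first hours of light and low around the transition to darkness. In females, *Pfk-2/FBPase-2* was at 86.9, 93.0, 82.1 and 68.3 FPKM at ZT1, ZT4, ZT7 and ZT10, and at 50.9, 54.3, 59.4 and 104.5 FPKM at ZT13, ZT16, ZT19 and ZT22. In males it was at 75.5, 74.98, 78.9 and 72.1 FPKM at the first of these times and at 54.9, 67.7, 61.5 and 75.1 FPKM at the others. The lowest female and the lowest male library were both those of ZT13, and the highest of all was the female library of ZT22 that stands apart. The 6 libraries of ZT13, ZT16 and ZT19 (50.9 to 67.7 FPKM) lay below the 10 libraries of all other times (68.3 FPKM or more), without overlap.

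*Pdk* followed the same course over a smaller range. In females it was at 52.2, 51.8, 49.5 and 46.3 FPKM at ZT1, ZT4, ZT7 and ZT10, and at 40.5, 37.1, 40.6 and 56.2 FPKM at ZT13, ZT16, ZT19 and ZT22. In males it was at 46.1, 40.9, 49.2 and 41.1 FPKM at the first of these times and at 33.4, 40.2, 37.2 and 44.2 FPKM at the others. The libraries of ZT13, ZT16 and ZT19 were again low (33.4 to 40.6 FPKM), with the male libraries of ZT4 and ZT10 (40.9 and 41.1 FPKM) just above the highest of them.

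A 24-h harmonic fit in limma gave *Pfk-2/FBPase-2* a range from trough to peak of 0.63 ± 0.13 (SE) log2 units with a peak at ZT2.53 ± 0.76 h, and *Pdk* a range of 0.40 ± 0.11 with a peak at ZT2.85 ± 1.01 h. The highest library was 2.05 times the lowest for *Pfk-2/FBPase-2* and 1.68 times for *Pdk*. Neither passed an adjusted p of 0.05 over all expressed genes in limma with Benjamini-Hochberg adjustment (adjusted p = 0.0638 and 0.259, unadjusted p = 0.000582 and 0.00618), while 0.807% of expressed genes did so together with a maximum/minimum of at least 1.3. Without the female library of ZT22, the range of *Pfk-2/FBPase-2* was 0.59 with an adjusted p of 0.00737 in limma, which passes, and the adjusted p of *Pdk* was 0.0767, which does not. With quantile normalization and with median-of-ratios scaling between libraries, *Pfk-2/FBPase-2* passed as well (adjusted p = 0.0315 and 0.0448). It did not pass under the other settings tried: a pseudocount of 0.1 (adjusted p = 0.0610), no filter on low values (0.0874), a filter of 10 FPKM (0.0530), the replicate block (0.0700) and time as a factor (0.610), nor in the 15 fits that left out 1 of the other libraries (up to 0.181). *Pdk* passed under none of the settings tried (adjusted p = 0.0767 to 0.967). The study had listed both genes as rhythmic from these same libraries, so that these fits are no independent evidence of a rhythm.

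In *Cry2* knockouts, *Pfk-2/FBPase-2* varied little over the day. At ZT4, ZT10, ZT16 and ZT22 it was at 79.6, 76.9, 75.4 and 81.4 FPKM in females and at 73.8, 76.5, 74.2 and 73.9 FPKM in males. The SD over these 8 libraries was 3.65% of the mean, against 20.5% over the 8 wild-type libraries of the same times (16.0% over 7 without the female library of ZT22). In *Clk* knockouts it was at 70.7, 73.0, 64.8 and 67.4 FPKM in females and at 58.2, 61.7, 63.5 and 72.1 FPKM in males at these times. The 2 libraries of ZT4, and those of ZT10, differed by more than the means of the 4 times did (64.1 to 69.7 FPKM).

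*Pdk* in *Cry2* knockouts was at 55.6, 51.0, 47.9 and 50.8 FPKM in females and at 45.3, 56.5, 54.6 and 60.3 FPKM in males at ZT4, ZT10, ZT16 and ZT22, and the libraries of every time overlapped with those of another. In *Clk* knockouts it was at 35.1, 47.9, 47.6 and 46.0 FPKM in females and at 34.1, 35.7, 41.3 and 42.9 FPKM in males. The 2 libraries of ZT4 were the lowest of these 8, whereas the wild-type libraries of ZT4 held 51.8 FPKM in females and 40.9 in males.

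The fitted range of *Pfk-2/FBPase-2* was 0.04 ± 0.07 log2 units in *Cry2* knockouts and 0.05 ± 0.13 in *Clk* knockouts (SE), against the 0.63 of wild-type. That of *Pdk* was 0.05 ± 0.14 in *Cry2* knockouts and 0.36 ± 0.16 in *Clk* knockouts, where the fitted peak was at ZT17.1 ± 1.73 h, against 0.40 with a peak at ZT2.85 in wild-type. The median expressed gene had a fitted range of 0.19 in *Cry2* knockouts and 0.34 in *Clk* knockouts, so that the 0.36 of *Pdk* is close to that of the median gene. None of the 4 knockout fits passed (adjusted p = 0.559 or more in limma), and the background was 0% of expressed genes in *Cry2* knockouts and 0.0096% in *Clk* knockouts. With median-of-ratios scaling, the fitted ranges in *Clk* knockouts were 0.28 for *Pfk-2/FBPase-2* (adjusted p = 0.920) and 0.09 for *Pdk* (adjusted p = 0.975).

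Whether a knockout course departed from that of wild-type was tested with terms for genotype and harmonic together. The difference between the 2 fitted curves spanned 0.59 log2 units for *Pfk-2/FBPase-2* in *Cry2* knockouts (unadjusted p = 0.0203, adjusted p = 0.957 in limma) and 0.61 in *Clk* knockouts (0.0265 and 0.548). For *Pdk* it spanned 0.42 in *Cry2* knockouts (0.101 and 0.979) and 0.73 in *Clk* knockouts (0.00401 and 0.317). For the median expressed gene it spanned 0.30 in *Cry2* knockouts and 0.38 in *Clk* knockouts. No interaction passed after adjustment over all expressed genes, of which 0.144% did so for *Cry2* knockouts and 0.202% for *Clk* knockouts. The small fitted ranges of *Pfk-2/FBPase-2* in the knockouts are thus a description, with 4 times and 8 libraries per strain.

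**Figure D2:**
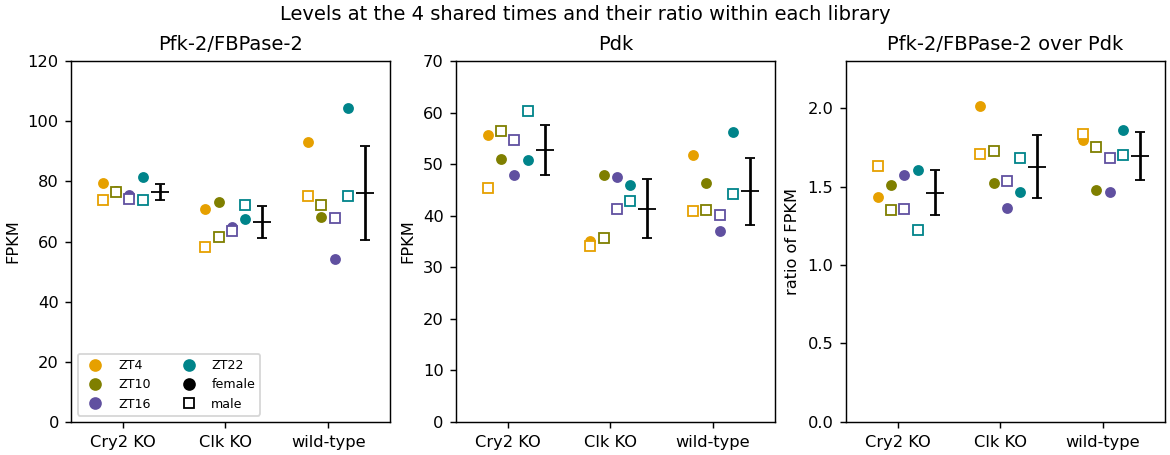
FPKM of *Pfk-2/FBPase-2* and *Pdk* and the ratio of *Pfk-2/FBPase-2* to *Pdk* (y axes) in the 8 libraries each of *Cry2* knockouts, *Clk* knockouts and wild-type at ZT4, ZT10, ZT16 and ZT22 (colours; filled circles female, open squares male), with the mean and SD of the 8 as black bars. For *Pfk-2/FBPase-2* the 8 *Cry2* knockout libraries (73.8 FPKM or more) all lie above the 8 *Clk* knockout libraries (73.0 or less).

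Over the 4 shared times, the level of *Pfk-2/FBPase-2* was 76.5 ± 2.79 FPKM in *Cry2* knockouts, 66.4 ± 5.29 in *Clk* knockouts and 76.3 ± 15.7 in wild-type (SD, n = 8 each). *Pdk* was at 52.8 ± 4.91 FPKM in *Cry2* knockouts, 41.3 ± 5.73 in *Clk* knockouts and 44.7 ± 6.46 in wild-type. For both genes *Cry2* knockouts were highest and *Clk* knockouts lowest. Only the difference between the 2 knockouts passed an adjusted p of 0.05 over all expressed genes as deposited, in limma with time as a factor.

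Between the strains, *Pfk-2/FBPase-2* was higher in *Cry2* knockouts than in *Clk* knockouts by 0.20 log2 units (95% interval 0.10 to 0.31, adjusted p = 0.0399 in limma) and *Pdk* by 0.35 (0.19 to 0.52, adjusted p = 0.0231). The *Cry2* knockout library was the higher one in 8 of 8 pairs of the same time and sex for both genes. The background was 3.8% of expressed genes called in this comparison, 1.42% called higher and 0.509% higher without overlap of the 8 and 8 libraries, as *Pfk-2/FBPase-2* was by a margin of under 1 FPKM. Of all calls in this comparison, 148 of 396 were higher as deposited, 464 of 849 with quantile normalization and 437 of 869 with median-of-ratios scaling. For *Pdk*, 6 of the 8 *Cry2* knockout libraries lay above all *Clk* knockout libraries. Exact permutation of the strain labels within time gave p = 0.00154 for both genes (two-sided), the smallest that this design allows. The call of *Pfk-2/FBPase-2* was lost in 12 of the 16 fits that left out 1 library (adjusted p between 0.0289 and 0.0840) and that of *Pdk* in 3 of 16 (0.0184 to 0.0542), while the difference stayed between 0.17 and 0.23 and between 0.31 and 0.39 log2 units. The call of *Pfk-2/FBPase-2* held without the male *Cry2* knockout library of ZT22, without either *Clk* knockout library of ZT4 and without the female one of ZT10. That of *Pdk* was lost without the male *Cry2* knockout library of ZT10 or ZT22 or the female *Clk* knockout library of ZT4. Without the male *Clk* knockout library of ZT4, both calls were kept (adjusted p = 0.0320 and 0.0301). Single glial markers were ordered differently over the genotypes. *Mdr65* had a median of 427 FPKM in *Cry2* knockouts, 282 in *Clk* knockouts and 373 in wild-type, in the order of *Pdk*, and *Eaat2* one of 87.5, 147 and 122 FPKM, in the opposite order. Their part in the difference was not tested.

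Against wild-type, *Pdk* was 0.24 log2 units higher in *Cry2* knockouts (95% interval 0.07 to 0.41), with 7 of 8 matched libraries higher and an adjusted p of 0.0749 in limma that misses the threshold. This call depended on the scale and on single libraries. The adjusted p was 0.0232 with quantile normalization, 0.0350 with median-of-ratios scaling, 0.0254 without the female wild-type library of ZT22 and 0.0472 without that of ZT4, and exact permutation within time gave an unadjusted p of 0.0201 (two-sided, against 0.00969 unadjusted in limma). The median expressed gene was at -0.08 in the same comparison. *Pfk-2/FBPase-2* differed by 0.03 (-0.17 to 0.22, adjusted p = 0.870), with 4 of 8 matched libraries higher. In this comparison, 9.51% of expressed genes were called, 8.46% lower and 1.05% higher. The scaling moved this split, with 109 of 990 calls higher as deposited, 247 of 582 with quantile normalization and 211 of 549 with median-of-ratios scaling.

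In *Clk* knockouts, *Pfk-2/FBPase-2* was at -0.18 relative to wild-type (-0.38 to 0.03, adjusted p = 0.326 in limma) and lower in 6 of 8 matched libraries. *Pdk* was at -0.11 (-0.32 to 0.10, adjusted p = 0.544) and lower in 5 of 8. The background was 3.46% of expressed genes called (52 of 360 higher as deposited, 141 of 357 with quantile normalization and 121 of 294 with median-of-ratios scaling), and the median expressed gene was at -0.06. Without both libraries that stand apart, the differences were -0.06 and -0.04.

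At single times, none of the 16 differences between a knockout and wild-type passed over all expressed genes with all libraries as deposited (adjusted p = 0.168 or more in limma), while 0.202%, 0.471%, 0.624% and 4.13% of expressed genes did at ZT4, ZT10, ZT16 and ZT22 for *Cry2* knockouts, and 0.653%, 0.231%, 0.259% and 1.71% for *Clk* knockouts. The widest for *Pfk-2/FBPase-2* were -0.37 ± 0.14 (SE) at ZT4 and -0.34 ± 0.14 at ZT22 in *Clk* knockouts and 0.30 ± 0.14 at ZT16 in *Cry2* knockouts. For *Pdk* they were -0.40 ± 0.16 at ZT4 in *Clk* knockouts and 0.40 ± 0.16 at ZT16 in *Cry2* knockouts. The differences of *Pfk-2/FBPase-2* at ZT22 rested on the wild-type libraries in both strains. In *Clk* knockouts it was -0.11 without the female one of ZT22 and -0.58 without the male one. In *Cry2* knockouts it was 0.045 and -0.43 in the same fits, against -0.19 with all libraries. Such fits leave 1 wild-type library at ZT22, so that only the size of the difference is given. At ZT4 in *Clk* knockouts, quantile normalization and median-of-ratios scaling gave -0.17 and -0.15 for *Pfk-2/FBPase-2* and -0.19 and -0.18 for *Pdk*. Without the male *Clk* knockout library of ZT4, these differences were -0.24 and -0.38. The scalings widened those at ZT16 in *Cry2* knockouts to 0.44 and 0.42 for *Pfk-2/FBPase-2* and 0.54 and 0.52 for *Pdk*, and without 1 library they ranged between 0.14 and 0.45 and between 0.30 and 0.49. The background moved as well: without both libraries that stand apart, 39 genes were called at ZT22 in *Cry2* knockouts, against 430 with all libraries, and 13, against 178, at ZT22 in *Clk* knockouts. At ZT4 in *Clk* knockouts, 12 genes were called with median-of-ratios scaling and 21 without both libraries, against 68. Leaving out 1 library gave 5 to 4111 calls at ZT22 in *Cry2* knockouts, and in *Clk* knockouts 7 to 1061 at ZT4 and 15 to 3939 at ZT22. The median expressed gene was at -0.20 at ZT4 in *Clk* knockouts, a comparison that holds the male library that is low in general, and at -0.11 at ZT16 in *Cry2* knockouts.

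Females had more *Pdk* than males in 12 of 16 pairs of the same genotype and time, with a mean difference of 0.11 log2 units (95% interval 0.0033 to 0.22). This did not pass over all expressed genes (adjusted p = 0.298 in limma, background 3.57% called), and swapping the sexes within pairs gave an exact permutation p of 0.0469 (two-sided) for the gene alone. The difference was 0.16 in wild-type (7 of 8 pairs higher in females), -0.07 in *Cry2* knockouts (1 of 4) and 0.19 in *Clk* knockouts (4 of 4), where the median expressed gene was at 0.13. None of these passed, with a background of 2.45% called in wild-type, 0.115% in *Cry2* knockouts and 0.499% in *Clk* knockouts. The sex difference in *Cry2* knockouts minus that in wild-type was -0.23 (-0.48 to 0.01, adjusted p = 0.857 in limma, background 0% called), and that in *Clk* knockouts minus that in wild-type was 0.03 (-0.22 to 0.27, adjusted p = 0.930, background 0.0096%). For *Pfk-2/FBPase-2* the overall difference was 0.08 (-0.03 to 0.18, adjusted p = 0.493), with 11 of 16 pairs higher in females.

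Within wild-type, *Pfk-2/FBPase-2* averaged 74.9 ± 19.6 FPKM in females and 70.1 ± 8.19 FPKM in males (SD, n = 8 each). The 8 female libraries ranged between 50.9 and 104.5 FPKM (SD 26.1% of the mean), with 93.0 FPKM as the highest besides ZT22, and the 8 male libraries between 54.9 and 78.9 FPKM (11.7%). The difference in spread was not tested. Female wild-type libraries were also the deeper ones (3425211 to 4456322 reads on genes, against 2848069 to 3300444 in males, without overlap). In *Cry2* knockouts the sexes overlapped in depth (3387452 to 4126236 reads in females, 3004498 to 3479659 in males). They also did in *Clk* knockouts (3218264 to 3741215 in females, 3364482 to 3992817 in males). The part of depth in the sex differences was not tested.

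The ratio of *Pfk-2/FBPase-2* to *Pdk* within a library does not depend on the scale of the library. It was 1.46 ± 0.143 in *Cry2* knockouts, 1.63 ± 0.201 in *Clk* knockouts and 1.70 ± 0.151 in wild-type at the shared times (SD, n = 8 each), with ranges of 1.22 to 1.63, 1.36 to 2.01 and 1.46 to 1.86. The ranges overlap in every pair of genotypes.

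The log2 ratio was -0.22 in *Cry2* knockouts relative to wild-type, lower in 6 of 8 matched libraries (exact permutation within time, two-sided p = 0.00926, adjusted p = 0.0278 over 3 comparisons). Leaving out each library in turn gave differences between -0.25 and -0.18, and the adjusted exact permutation p lay between 0.0139 and 0.0741. It missed 0.05 in 6 of 16 cases: without either wild-type library of ZT4 (0.0741 each) or ZT22 (0.0556 without the male and 0.0648 without the female one), and without the male *Cry2* knockout library of ZT10 or of ZT16 (0.0602 each). With the replicate block the exact permutation p was 0.0313 (adjusted 0.0938). In *Clk* knockouts it was -0.06 relative to wild-type (exact permutation p = 0.327, adjusted 0.327), and between *Cry2* and *Clk* knockouts -0.15 (exact permutation p = 0.0664, adjusted 0.0995). The mean of *Pdk* was 52.8 FPKM in *Cry2* knockouts, against 44.7 in wild-type, and that of *Pfk-2/FBPase-2* 76.5 FPKM, against 76.3. By sex, the ratio was 1.22 to 1.63 in male *Cry2* knockout libraries, against 1.69 to 1.83 in male wild-type libraries of the shared times. In females it was 1.43 to 1.60, against 1.46 to 1.86, and higher in *Cry2* knockouts than in wild-type at ZT10 and ZT16. Whether the sexes differ in this was not tested.

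Over the wild-type day the ratio lay between 1.26 and 1.86 in females and between 1.61 and 1.83 in males (n = 8 each). The lowest female value was that of ZT13, when *Pfk-2/FBPase-2* was at 50.9 FPKM and *Pdk* at 40.5, and the highest that of ZT22. In *Clk* knockouts, the female library of ZT4 had the highest ratio of all 32 libraries (2.01), with *Pdk* at 35.1 FPKM.

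**Figure D3:**
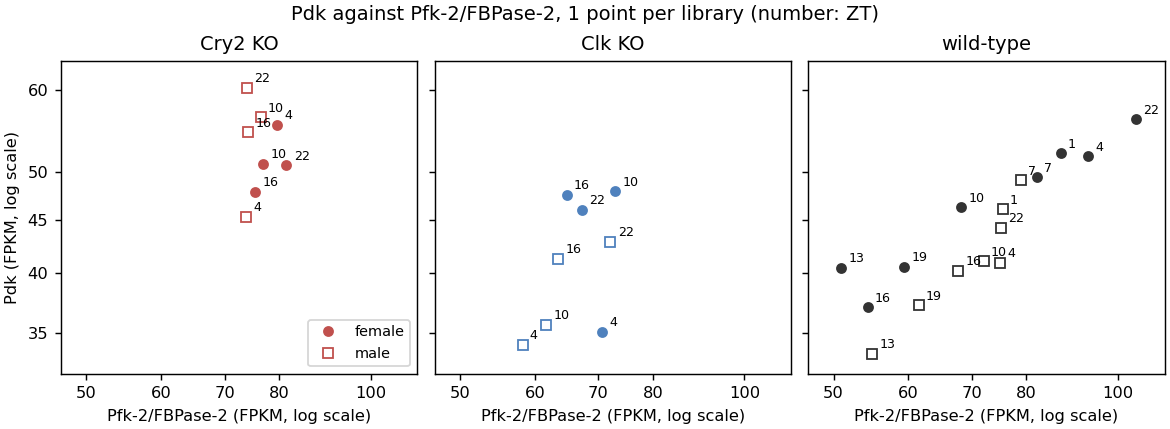
*Pdk* against *Pfk-2/FBPase-2* (FPKM, both axes on a log scale), with 1 point per library labelled by its ZT in *Cry2* knockouts, *Clk* knockouts and wild-type, filled circles for female and open squares for male libraries. The wild-type points rise together (r = 0.89, n = 16), and the *Cry2* knockout points form a narrow vertical band (r = 0.02, n = 8).

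In wild-type, libraries with more *Pfk-2/FBPase-2* also had more *Pdk* (Pearson r = 0.89, permutation p = 2e-05, adjusted p = 6e-05 over 3 genotypes; Spearman rho = 0.92, permutation p = 1e-05, the smallest that 100000 draws can give, adjusted p = 3e-05; n = 16). Without the 2 libraries farthest from the median of *Pfk-2/FBPase-2*, r was 0.91, and without the female library of ZT22 it was 0.85. It was 0.97 within the 8 female libraries (exact permutation p = 0.000372; rho = 0.95, exact permutation p = 0.00114) and 0.94 within the 8 male libraries (exact permutation p = 7.44e-05; rho = 0.98, exact permutation p = 0.000397). With adjustment over the sexes, the exact permutation p was 0.000372 for r and 0.00114 for rho in females, and 0.000149 for r and 0.000794 for rho in males. Over all 16 libraries, r was 0.89 with quantile normalization and 0.90 with median-of-ratios scaling. After the mean of each time was taken out, r was 0.67 (exact permutation by sign over 8 times, p = 0.180), so that a relation beyond the shared time course was not established. Both genes were picked as rhythmic on these libraries, and their fitted peaks fell at ZT2.53 and ZT2.85.

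In *Cry2* knockouts, r was 0.02 (exact permutation p = 0.956, adjusted 0.956) and rho 0.07 (exact permutation p = 0.882, adjusted 0.882; n = 8), and r was 0.0075 without the 2 libraries farthest from the median. In *Clk* knockouts, r was 0.52 (exact permutation p = 0.185, adjusted 0.277) and rho 0.62 (exact permutation p = 0.115, adjusted 0.172; n = 8), and r was 0.05 without the 2 farthest libraries, on which it rests, and 0.27 without the male library of ZT4. Without the female library of ZT4, r was 0.78 (exact permutation p = 0.0433, unadjusted). With all 8 libraries of a strain, no relation was thus detected in either knockout. In *Cry2* knockouts, the SD of *Pfk-2/FBPase-2* was 0.05 log2 units, against 0.29 in wild-type. In FPKM, that SD was 3.65% of the mean, and the counting interval had a median half-width of 6.91% of the value. That half-width holds about 2 counting SDs, so that the spread between *Cry2* knockout libraries was close to that of counting alone. For this reason r cannot show whether the relation was lost in this strain.

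The sign of r in the knockouts depended on the scale between libraries. It was -0.66 in *Cry2* knockouts and -0.19 in *Clk* knockouts with quantile normalization, and -0.58 and -0.18 with median-of-ratios scaling. The shift of the median expressed gene in a library correlated with *Pdk* by 0.80 in *Cry2* knockouts and 0.85 in *Clk* knockouts, against -0.35 in wild-type, and with *Pfk-2/FBPase-2* by 0.30 and 0.64, against -0.39 (a description over 8, 8 and 16 libraries).

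The difference in r at the shared times was -0.89 for *Cry2* knockouts minus wild-type (0.02 against 0.91, n = 8 each) and -0.40 for *Clk* knockouts minus wild-type (0.52 against 0.91). Exact permutation of the genotype labels gave two-sided p = 0.0605 and 0.184 (adjusted 0.121 and 0.184 over 2 comparisons), so that neither difference passed. With all 16 wild-type libraries, the difference for *Cry2* knockouts was -0.86 (permutation p = 0.0023) and that for *Clk* knockouts -0.37 (permutation p = 0.0570). With median-of-ratios scaling the differences were -1.501 (exact permutation p = 0.0127) and -1.10 (exact permutation p = 0.0440). Without the female wild-type library of ZT22, they were -0.82 (exact permutation p = 0.229) and -0.32 (exact permutation p = 0.395). Leaving out each library in turn gave an exact permutation p between 0.0188 and 0.229 for *Cry2* knockouts, under 0.05 in 5 of 16 cases. These permutations centred each genotype on its mean but kept its spread. For *Pfk-2/FBPase-2* the SD was 0.05 log2 units in *Cry2* knockouts and 0.29 in wild-type at the shared times, so that the p-values are approximate as tests of r alone. As the spread in *Cry2* knockouts was close to that of counting alone, a difference in r from wild-type cannot show a lost relation there.

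Over the 16 wild-type libraries, *Pdk* was the expressed gene with the highest r with *Pfk-2/FBPase-2* among 10411 others, and *Pfk-2/FBPase-2* was the third for *Pdk*. The median r with all expressed genes was -0.05 for both. Without the female library of ZT22 these ranks were 5 and 7. In *Cry2* knockouts, 58.1% of expressed genes had a higher r with *Pfk-2/FBPase-2* than *Pdk* had, and 69.7% a higher r with *Pdk* than *Pfk-2/FBPase-2* had. In *Clk* knockouts these shares were 39.8% and 59.4%, and the median r with all expressed genes was 0.44 and 0.60.

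The next most like *Pfk-2/FBPase-2* in wild-type were *Fit1* (DPOGS204181, r = 0.88), whose *Drosophila* namesake is a fermitin that acts with integrins in cell adhesion, and *Mhcl* (DPOGS207000, r = 0.88), named after a myosin heavy chain-like gene. Their r with *Pfk-2/FBPase-2* was 0.40 and -0.26 in *Cry2* knockouts and 0.85 and 0.64 in *Clk* knockouts. The 2 genes ahead of it for *Pdk* were DPOGS204753 (r = 0.90) and *CG10527* (DPOGS201446, r = 0.89), which had 0.59 and 0.20 in *Cry2* knockouts and 0.63 and 0.87 in *Clk* knockouts. *Pfk-1*, the enzyme that the product of Pfk-2 activates, came at rank 1436 for *Pfk-2/FBPase-2* (r = 0.46) and 1060 for *Pdk* (r = 0.52). These r are descriptions over libraries that share time, scale and depth. Those with *Pfk-2/FBPase-2* in *Cry2* knockouts are also limited by its narrow spread there.

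**Figure D4:**
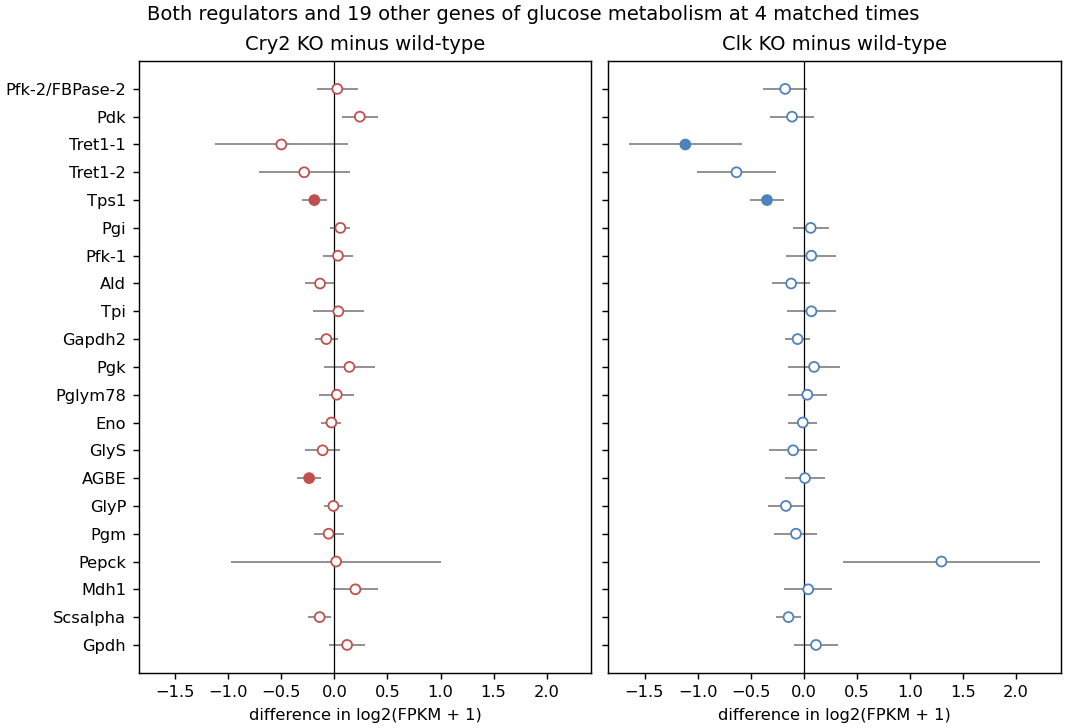
Difference in log2(FPKM + 1) (x axis) of *Cry2* knockouts minus wild-type (left) and *Clk* knockouts minus wild-type (right) at 4 matched times for *Pfk-2/FBPase-2*, *Pdk* and 19 other genes of glucose metabolism (y axis), with 95% intervals. Filled points passed an adjusted p of 0.05 over all expressed genes, which held for *Tps1* and *AGBE* on the left and *Tret1-1* and *Tps1* on the right.

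The list holds 19 further genes of trehalose, glycolysis, glycogen and pyruvate metabolism, which the study likewise picked as rhythmic on these libraries, so that their wild-type rhythms are not independent evidence. In the wild-type fit, 6 of 19 passed (background 0.807%), where neither regulator did: *Tret1-1* and *Tret1-2* (trehalose transporters), *Pgi* (phosphoglucose isomerase), *Pfk-1*, *Eno* (enolase) and *AGBE* (glycogen branching enzyme). The median fitted range of the list was 0.42 log2 units, against 0.20 over all expressed genes, 0.63 for *Pfk-2/FBPase-2* and 0.40 for *Pdk*. Without the female library of ZT22, 12 of 19 passed, and with time as a factor 1 of 19 did.

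The fitted peaks of the 6 list genes that passed lay between ZT4.83 and ZT12.8, against ZT2.53 for *Pfk-2/FBPase-2* and ZT2.85 for *Pdk*, and the differences in peak time were not tested. *AGBE* peaked at ZT4.83 ± 0.69 h, *Pfk-1* at ZT6.47 ± 0.67 h, *Tret1-1* at ZT12.0 ± 0.63 h and *Tret1-2* at ZT12.8 ± 0.40 h (SE). *Tret1-2* and *Pfk-2/FBPase-2* ran against each other in wild-type (r = -0.65). The list gene most like both regulators was *GlyS* (glycogen synthase, r = 0.80 with *Pfk-2/FBPase-2* and 0.82 with *Pdk*), with a fitted peak at ZT3.67 ± 0.95 h that did not pass (adjusted p = 0.205 in limma).

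In level, 2 of 19 were lower and 0 higher in *Cry2* knockouts than in wild-type: *AGBE* (-0.24) and *Tps1*, a trehalose-6-phosphate synthase (-0.19; adjusted p = 0.0158 and 0.0443 in limma), where 8.46% of expressed genes were called lower. In *Clk* knockouts, 2 of 19 were lower and 0 higher: *Tret1-1* (-1.12) and *Tps1* (-0.35; adjusted p = 0.0278 and 0.0241), with 3.46% of expressed genes called. The medians over the list were -0.03 and -0.01, against -0.08 and -0.06 over all expressed genes. *Pfk-1* itself was at 0.03 in *Cry2* knockouts and 0.07 in *Clk* knockouts relative to wild-type (adjusted p = 0.767 and 0.740). Between the strains, where both regulators were higher in *Cry2* knockouts, 0 of 19 were higher and 1 was lower (*AGBE*, -0.25, adjusted p = 0.0483), with 3.8% of expressed genes called. These counts rest on single libraries and settings. Between the strains, 0 of 19 passed with the replicate block and with no filter on low values, and 1 of 19 passed in only 3 of the 16 fits without 1 library. Without 1 library, 1 to 3 of 19 passed between *Cry2* knockouts and wild-type and 0 to 3 of 19 between *Clk* knockouts and wild-type, and with the replicate block 1 of 19 did between *Cry2* knockouts and wild-type. With either scaling between libraries, 0 of 19 passed between *Cry2* knockouts and wild-type and 4 of 19 between the strains, and without both libraries that stand apart 1 of 19 passed between *Clk* knockouts and wild-type. In sex, 0 of 19 passed in limma, with 10 of 19 at an unadjusted p under 0.05, against 15.9% of expressed genes.

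The nearest gene before *Pfk-2/FBPase-2* is DPOGS215488, which the study names *CG7376*, 2644 bases away. It had a median of 19.01 FPKM in wild-type, an r of 0.75 with *Pfk-2/FBPase-2*, and a fitted range of 0.47 log2 units that did not pass (adjusted p = 0.124 in limma). This r was 0.71 in *Cry2* knockouts and 0.51 in *Clk* knockouts. The narrow spread of *Pfk-2/FBPase-2* in *Cry2* knockouts limits the first of these as it does the r with *Pdk*, so that it cannot show a kept relation. The next gene on the other side, DPOGS215491, had a median of 5.37 FPKM. Beside *Pdk* lie DPOGS210187, 2539 bases away with a median of 14.4 FPKM and an r of 0.45 with *Pdk*, and DPOGS210201, 860 bases away with 9.45 FPKM and an r of -0.44. None of the 4 neighbours passed for a wild-type rhythm (adjusted p = 0.124 to 0.917 in limma) or a level difference between a knockout and wild-type (adjusted p = 0.184 or more).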

How the data were processed

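RNA-seq of 32 libraries was described for 2 genes, with fits across all expressed genes of the 15130 in the files. The authors sequenced polyA+ RNA from a directional kit, with reads handled in CASAVA 1.8.2, TopHat2 and Cufflinks per the processing notes, and deposited FPKM per gene and library on assembly v3 with a 95% interval. As counts are not among the values used, no count model was fitted, and reads behind a value were taken from its interval (82.5% of values under 30 reads came out within 0.05 of a whole read). FPKM do not correct for a library's composition, hence the scaling alternatives.

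Fits used limma 3.58.1 in R 4.3.3 on log2(FPKM + 1) over the 10412 genes that reached 3 FPKM in any wild-type library, with Benjamini-Hochberg adjustment at 0.05 over all of them. A harmonic of 24 h stood in for the study's rhythm tools (RAIN, MetaCycle, DODR). Levels had time as a factor, sex had genotype-by-time groups, and correlations and ratios had permutation tests (Python 3.11.15, numpy 2.4.6, scipy 1.17.1, pandas 2.3.3, with figures in matplotlib 3.10.9). Alternatives were a pseudocount of 0.1, no filter or a filter of 10 FPKM, quantile and median-of-ratios scaling, the replicate block, wild-type at 4 times only, time as a factor, permutation of single genes and omission of each library in turn. Leaving out both libraries that stand apart, and exact permutation between the knockouts, were added after the data were seen.

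Groups, sex and replicate numbers come from the sample labels. Nothing in the labels says that replicates of a number were handled together. The p-values measure the spread between pools of 3 brains. As each genotype and time has a male and a female pool, this spread also holds any sex difference, save in the sex fits and with the replicate block. Genes and lists were chosen with earlier results of these data known. Named genes were the 2 regulators, the 19 list genes, the 3 genes most correlated with each regulator in wild-type, and the next genes on each scaffold, with names only as the study pairs them with identifiers. *Cry2*, *per* and *tim* were looked at for the labels only, and DPOGS214898 was singled out after its values were seen. Only limma fits were tried on simulated data: the wild-type rhythm, the *Cry2* interaction, the level of *Cry2* knockouts minus wild-type and the sex difference over all libraries.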

Additional observations from a re-analysis of the deposited data

Results flagged for a closer look

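In 21 groups of 4 or 8 libraries, 2 held a value far from the others by Dixon's test, where chance alone gives about 1 in 20 groups. The libraries of a group come from different times, so that they are not plain replicates. Among the 4 male *Cry2* knockout libraries, *Pfk-2/FBPase-2* was highest at ZT10 with 76.5 FPKM, while the other 3 lay between 73.8 and 74.2 FPKM. The counting interval of that highest value (70.8 to 82.1 FPKM) holds the other 3. Among the 4 female *Clk* knockout libraries, *Pdk* was lowest at ZT4 with 35.1 FPKM, and the male library of that time was likewise low (34.1 FPKM).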

How the results depend on the processing

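Over 26 results, 402 of 432 values without 1 library and 140 of 158 under other settings kept their direction and their side of the threshold. Fitted ranges and interactions are positive by construction, so that their direction could not change. Results that did not pass and stayed so count as kept, and permutation p-values entered unadjusted. The count is thus no measure of how firm a call is: that of *Pfk-2/FBPase-2* between the strains was lost in 12 of 16 fits without 1 library. The fitted wild-type range of *Pfk-2/FBPase-2* passed at 0.65 with quantile normalization, 0.66 with median-of-ratios scaling and 0.59 without both libraries that stand apart (0.58 to 0.70 without 1 library). The level of *Pdk* in *Cry2* knockouts minus wild-type passed at 0.33, 0.32 and 0.28 under these settings (0.21 to 0.28 without 1 library). For its 0.24 as deposited, exact permutation gave p = 0.0201, which is unadjusted and above the unadjusted 0.00969 of limma, and so is no pass of the adjusted threshold. The level difference of *Pfk-2/FBPase-2* was between -0.025 and 0.091 without 1 library. Between *Cry2* and *Clk* knockouts, levels without 1 library were 0.31 to 0.39 for *Pdk* and 0.17 to 0.23 for *Pfk-2/FBPase-2*, and the log2 ratio -0.19 to -0.11. The sex difference of *Pdk* (0.11) was under 0.05 by exact permutation (0.0469) and in limma (0.0441) before adjustment, and not after it. It was 0.071 to 0.113 under other settings and 0.090 to 0.134 without 1 library. In *Clk* knockouts alone, this sex difference was 0.057 to 0.24 under other settings. The correlation was 0.67 in wild-type after time means were removed. In *Cry2* knockouts it was -0.0051 on FPKM, -0.66 with quantile normalization, -0.58 with median-of-ratios scaling, -0.10 after time means were removed and -0.31 to 0.33 without 1 library, and in *Clk* knockouts -0.19 and -0.18 with the scalings and 0.27 to 0.78 without 1 library. Its difference from wild-type was -0.86 with all 16 wild-type libraries, -1.501 with median-of-ratios scaling and -1.23 to -0.58 without 1 library for *Cry2* knockouts, and -1.10 with median-of-ratios scaling for *Clk* knockouts. The causes were not tested.

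Differences at single times turned sign without 1 library. In *Cry2* knockouts minus wild-type, *Pdk* ranged from -0.045 to 0.29 at ZT4 and -0.023 to 0.32 at ZT22, and *Pfk-2/FBPase-2* from -0.28 to 0.031 at ZT4 and -0.43 to 0.045 at ZT22 (0.045 without both libraries that stand apart). In *Clk* knockouts minus wild-type, *Pdk* ranged from -0.28 to 0.13 at ZT10 and -0.33 to 0.0066 at ZT22 (0.0066 without both), and *Pfk-2/FBPase-2* from -0.18 to 0.057 at ZT10, -0.077 to 0.24 at ZT16 and, without a turn, -0.58 to -0.11 at ZT22. The sex difference of *Pfk-2/FBPase-2* in *Clk* knockouts was -0.021 with median-of-ratios scaling. That in *Clk* knockouts minus wild-type was -0.091 and -0.12 for *Pdk* and -0.051 and -0.10 for *Pfk-2/FBPase-2* with quantile normalization and median-of-ratios scaling, and -0.049 to 0.076 and -0.0033 to 0.12 without 1 library. That of *Pfk-2/FBPase-2* in *Cry2* knockouts minus wild-type was -0.045 to 0.067 without 1 library.

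With the replicate block, no call of either gene changed in limma, and the correlation was 0.93 in wild-type, 0.35 in *Cry2* knockouts and 0.34 in *Clk* knockouts. Deviations of same-numbered libraries correlated by 0.03 on average over 120 pairs of groups (14 above 0.1). The number is also the sex in every group, so that it pairs the samples by sex, and this low average cannot settle whether they share handling as well. The block moved the calls over all genes to 33, against 21, for the *Clk* interaction, to 762, against 430, at ZT22 in *Cry2* knockouts and to 150, against 68, at ZT4 in *Clk* knockouts. Without both libraries that stand apart, these were 39 and 21, and those at ZT22 in *Clk* knockouts 13, against 178. Wild-type rhythm calls, 84 in all, were 37 with time as a factor and 174 without the female library of ZT22. Level calls in *Cry2* knockouts minus wild-type, 990 in all, were 549 with median-of-ratios scaling and 1623 without both libraries that stand apart.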
